A study of Mus musculus with 2 samples.

Results

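The genes described are Apela, Apln and Aplnr, 3 of the 29982 genes with values on the arrays. They are 1 signalling system. Apela encodes the secreted peptide known as ELABELA or Toddler, Apln encodes apelin, and Aplnr encodes the apelin receptor, a G protein-coupled receptor that both peptides bind. The genes were picked by name from the probe annotation, each by its 1 probe. Apela was picked with its ratio in the comparison below already known, so the values of these genes are a description and carry no test.

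Both peptides are cut from longer precursors and released to act on cells that carry the receptor. The system is best known for guiding the movement of mesendodermal and heart progenitor cells in early embryos, for the growth of vessels, and for fluid balance and vessel tone in adults. In growing vessels apelin marks the endothelial tip cells, while the receptor is strong on venous endothelium. APELA is also known as a peptide of the kidney.

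The tissue was the ureter of NMRI mouse embryos at stage E16.5 (the day of embryonic development given in titles and protocols, although the stage label of the second channel reads E14.5). Conditional mutants (Pparg-cKO) had the genotype Pax2-cre/+; Pparg(fl/fl), in which the cre recombinase acts in the epithelium of the nephric duct, ureter and collecting duct system and removes exons 2 and 3 of Pparg. A transcript without these exons is still made. Controls were cre-negative littermates labelled Pparg(fl/?), whose floxed allele count the label leaves unstated. RNA of pooled ureters was hybridised on 2 dual-colour arrays, with 1 Pparg-cKO pool against 1 control pool on each: array 1 held pools of female embryos and array 2 pools of male embryos, with the dyes exchanged. Sex and dye orientation therefore cannot be told apart, and the number of arrays limits the precision of every value. The labels do not say whether the pools were drawn from separate litters.

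The dye labels and the study's own reading of the arrays point in opposite directions, so RNAs are named here by dye. RNA A carried AlexaFluor647 on array 1 and AlexaFluor555 on array 2. It is the control by the dye labels and the Pparg-cKO by the direction of the study's text and of its deposited fold changes, where these are read as Pparg-cKO over control in the order of the sample titles. RNA B is the other RNA. All ratios are log2 of RNA A over RNA B. They were not used to infer a genotype. The probe of Pparg, the targeted gene, read 11295 (RNA A) against 7430 (RNA B) on array 1 and 12888 against 7872 on array 2 (log2 0.66 ± 0.076 on average, SD over n = 2 arrays). Whether that probe lies in the deleted exons was not determined, so it checks neither reading.

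Of 39429 probes, those of Apela, Apln and Aplnr are single 60-base oligonucleotides in 4 spots per array. The opening 30 bases of each are shown, 5′ to 3′, because every value below is a hybridisation to these sequences.
Apela probe: ttacacatagtggtgggtttcacaaaggca
Apln probe: gtcctttggcatctgttcgaatgtcctcat
Aplnr probe: gggcctttgtgagctggacatgggtgtgca
On mouse build mm9 the files place the Apela probe on the minus strand of chromosome 8 at 67552548 to 67552607, the Apln probe on the minus strand of chromosome X at 45378593 to 45378652, and the Aplnr probe on the plus strand of chromosome 2 at 84979638 to 84979697. The G and C content of the whole probes was 41.7%, 40.0% and 55.0%, respectively. No annotation of that build was used, so their place relative to exons and untranslated regions is not given here.

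Because the study deleted a DNA-binding nuclear receptor, the 250 bases upstream of the annotated starts of the ligand genes are shown as well, from RefSeq on build GRCm38.p6. The Apela stretch is on the minus strand, chr8:65037337-65037586, and the Apln stretch on the minus strand, chrX:48034854-48035103.
Apela upstream: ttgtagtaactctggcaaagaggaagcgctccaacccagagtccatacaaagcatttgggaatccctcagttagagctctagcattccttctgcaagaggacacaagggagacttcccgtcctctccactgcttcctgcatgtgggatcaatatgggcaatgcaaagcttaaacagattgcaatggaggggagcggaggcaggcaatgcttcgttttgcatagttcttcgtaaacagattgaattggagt
Apln upstream: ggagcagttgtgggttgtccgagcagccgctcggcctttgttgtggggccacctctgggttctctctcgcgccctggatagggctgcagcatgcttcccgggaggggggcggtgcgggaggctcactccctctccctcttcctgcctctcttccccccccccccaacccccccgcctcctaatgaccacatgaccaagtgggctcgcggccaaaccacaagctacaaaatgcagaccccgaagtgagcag
G and C made up 48.0% of the Apela stretch and 65.2% of the Apln stretch, against a median of 52.4% over 32851 promoters. Neither stretch held, on either strand, the core motif of nuclear receptors, AGGTCA (found in 14.0% of all promoters over the same window), the hypoxia element core ACGTG (16.6%) or the TATA box letters TATAAA (12.4%). The octamer ATTTGCAT (1.60%) was not found in them either. The search covers these letters in these windows only.

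Apela was 3.0-fold brighter in RNA A than in RNA B on array 1 and 4.07-fold brighter on array 2, whereas the probes of apelin and the receptor differed by less than 1.3-fold on either array. By the dye labels Apela was thus higher in control ureters, and by the study's direction it was higher in Pparg-cKO ureters. In bulk tissue, fewer cells that express a gene and less RNA per cell cannot be told apart.

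The processed signal of Apela was 6382 (RNA A) against 2127 (RNA B) on array 1, and 5922 against 1454 on array 2. The log2 ratios averaged 1.81 ± 0.31 (SD, n = 2 arrays), a 3.50-fold difference. Every spot showed it: RNA A spots ranged from 6307 to 6466 and RNA B spots from 2096 to 2167 on array 1, and from 5842 to 5967 and 1443 to 1469 on array 2, where 1 of the 4 spots was flagged and left out. RNA A and RNA B spots did not overlap on either array. As these values chose Apela and the spots are repeats within an array, this is a description. The share of all probes without such overlap was not counted, here or for the genes below. The spots of 1 array differed by an SD of 0.012 in log2 ratio, far less than the arrays differed from each other.

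The Apela signal stood well clear of background. The raw spot signals averaged 21653 for RNA A and 8204 for RNA B on array 1, over local backgrounds of 64.9 and 27.4. On array 2 they were 26113 and 4287 over 27.0 and 58.7. Because the dyes were exchanged, RNA A was read in red on array 1 and in green on array 2, and Apela was brighter in the channel of RNA A both times.

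**Figure D1:**
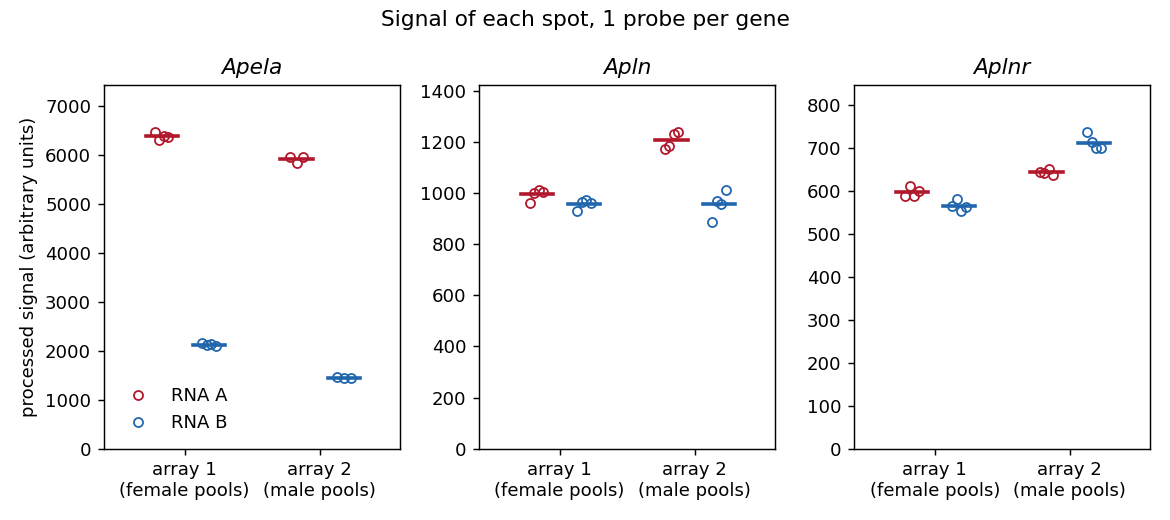
Processed signal (arbitrary units, linear axis from 0) of every kept spot of the Apela, Apln and Aplnr probes, in RNA A (red circles) and RNA B (blue circles) on array 1 and array 2; horizontal lines are geometric means over spots. Apela spots of RNA A lie between 5842 and 6466 and those of RNA B between 1443 and 2167, while Apln and Aplnr differ little.

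A gene was tested if the same RNA, A or B, was well above background on both arrays. Among the 21429 tested genes Apela ranked 21 on array 1, 5 on array 2 and 7 by the mean ratio, counted from the side of RNA A. The median mean ratio over these genes was 0.0067, and the median size of the mean ratio was 0.10. The study's filter, taken to ask for 1.5-fold or more one way on each array and for the brighter RNA to reach a signal of 100, was passed in the direction of RNA A by 47 of 29982 genes (0.157%) and in the direction of RNA B by 69 (0.23%). Apela was among the former, and Apln and Aplnr were in neither set. As these ratios chose Apela, its rank is given as a description.

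The 2 arrays differed by 0.44 in the log2 ratio of Apela. Over all tested genes the median size of that difference was 0.29, and 67.7% of genes had a smaller one. Averaged over both RNAs, and so over both dyes, the log2 signal of Apela was 11.85 on the array of female pools and 11.52 on the array of male pools. The difference of -0.33 (male minus female) stood at percentile 5.04 of all tested genes, whose median was 0.08. For Apln the same difference was 0.14 (percentile 65.7) and for Aplnr 0.22 (percentile 80.9). With 1 array per sex these differences have no replicate check.

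Apln, the gene of the other ligand, gave 995 (RNA A) against 958 (RNA B) on array 1, where the spots of the RNAs overlapped (962 to 1011 and 930 to 973). On array 2 it gave 1207 and 956, and the spots did not overlap (1174 to 1238 and 887 to 1014). The ratios of 1.04-fold and 1.26-fold both lay on the side of RNA A, averaging 0.20 ± 0.20 on the log2 scale (SD, n = 2 arrays). A mean ratio of this size or larger, in either direction, was not rare: 5011 of the 21429 tested genes reached it, so its rank by size was 5011.

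Aplnr, the receptor, gave 597 (RNA A) against 566 (RNA B) on array 1 and 644 against 713 on array 2. The spots of the RNAs did not overlap on either array (588 to 612 and 553 to 582 on array 1, and 637 to 652 and 699 to 737 on array 2), but the direction turned between them. On either array, red was the brighter channel. The log2 ratios of 0.077 and -0.15 averaged -0.035 ± 0.16 (SD, n = 2 arrays), a spread larger than the mean itself. A change of direction between the arrays was common, at 61.0% of tested genes, and over those genes the ratios of the arrays were only weakly related (Pearson's r = -0.05, Spearman's rho = -0.25, across genes, which are not independent replicates).

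**Figure D2:**
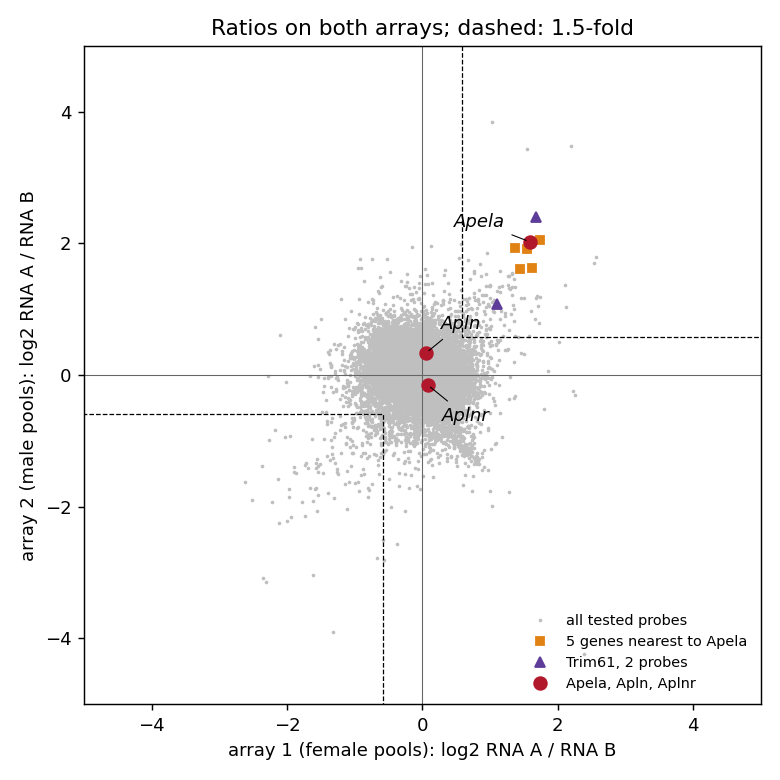
Log2 ratio of RNA A over RNA B on array 1 (x axis) and array 2 (y axis) for 28298 tested probes (grey, 1 lies outside the axes), with Apela, Apln and Aplnr (red), the 5 genes whose ratios were nearest to those of Apela (orange squares) and the probes of Trim61 (purple triangles); dashed lines mark 1.5-fold one way on each array. Apela lies far from the main cloud at 1.59 and 2.03, while Apln and Aplnr lie inside it.

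The 5 genes whose pair of ratios lay closest to that of Apela, by straight-line distance over the 2 arrays, were Slc6a14, Krt6b, Krt6a, Tspan1 and Gm36377. Krt6a and Krt6b encode keratins of stratified and stressed epithelia. Krt6a gave 120 (RNA A) against 46.7 (RNA B) on array 1 and 188 against 49.0 on array 2 (log2 1.36 and 1.94, distance 0.24), and Krt6b gave 57.4 and 17.2, and 95.7 and 23.2 (1.74 and 2.05, distance 0.15). Slc6a14, an amino acid transporter, read 55.4 against 19.0 on array 1 and 56.5 against 15.0 on array 2 (1.54 and 1.91), the smallest distance, at 0.12. Tspan1, a tetraspanin of epithelial cells, gave 184 and 60.0, and 211 and 68.4 (1.62 and 1.63, distance 0.40), and Gm36377, a predicted gene, 52.1 and 19.2, and 52.6 and 17.2 (1.44 and 1.61, distance 0.44). Of these, Krt6a and Tspan1 reached the signal of 100 and passed the filter. Likeness over 2 arrays is a description of position in the plot of ratios and no more.

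Along the chromosome, the gene next to Apela showed a difference in the same direction. Trim61, a member of the tripartite motif family, has 2 probes on the minus strand 15.5 and 15.1 kb from the Apela probe, at 67537012 to 67537071 and 67537474 to 67537533 of chromosome 8. The first gave 45.1 (RNA A) against 21.0 (RNA B) on array 1 and 45.2 against 21.3 on array 2, which is 2.15-fold and 2.12-fold (log2 1.09 ± 0.013, SD, n = 2 arrays). The second gave 18.1 and 5.61, and 19.4 and 3.66 (log2 1.69 and 2.41), with RNA B on array 2 not well above background. Both probes stood below the signal of 100 that the filter asks for. With normexp background correction at an offset of 50, which pulls dim ratios towards 0, the log2 ratios were 0.63 and 0.62 for the first probe and 0.58 and 0.68 for the second, so the direction stayed.

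Other genes near Apela did not share this. Within 300 kb the files place 9 further probes, of which 8 were tested, and those of Trim61 were the only ones at 1.5-fold or more towards RNA A on both arrays, a condition met by 151 of 28298 tested probes (0.534%). Trim60, the next gene beyond Trim61, gave log2 ratios of -0.10 and 0.83 at signals of 6.45 to 11.5, and Trim75 was not well above background. BC030870, at 57.6 kb on the other side, gave -0.22 and 0.46. The genes that RefSeq lists next to Apela on that side, Gm39183, Smim31 and Gm45445, matched no probe by name. The window of 300 kb was chosen after the values were seen.

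No such neighbour was found at the other genes. Within 300 kb of Apln 14 probes were tested, with mean log2 ratios from -0.23 to 0.30, and within 300 kb of Aplnr 12 probes, from -0.28 to 0.43, and none reached 1.5-fold on both arrays in either direction. Of the genes nearest to Apln, Ocrl had a mean of -0.07, Xpnpep2 0.18, Sash3 0.30 and Zdhhc9 0.05, and the neighbours Gm36658 and Gm7743 matched no probe. Next to Aplnr, Ssrp1 had a mean of 0.0012, Tnks1bp1 -0.07 and Lrrc55 -0.18, 4930443O20Rik was not well above background, and Gm13712 and Gm13715 matched no probe.

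**Figure D3:**
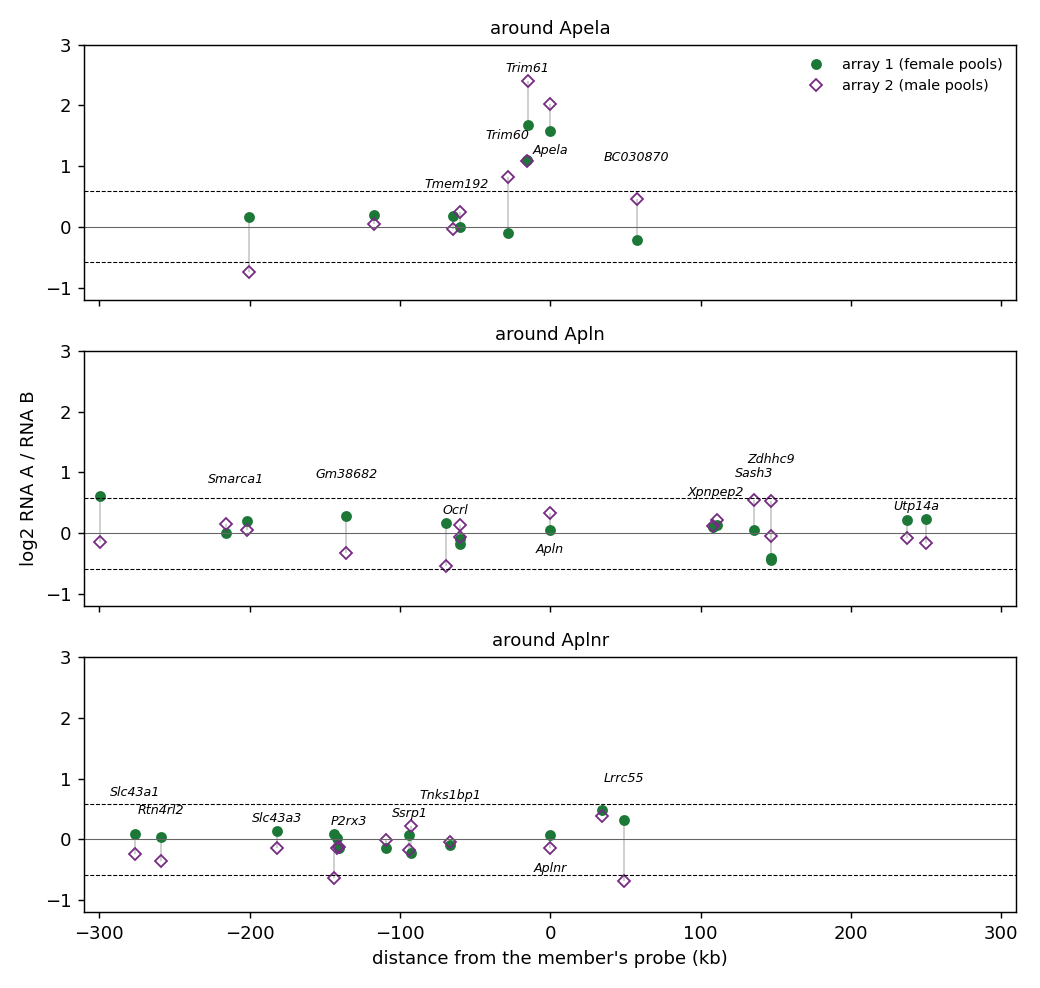
Log2 ratio of RNA A over RNA B of tested probes within 300 kb of the Apela, Apln and Aplnr probes, by distance in kb along the chromosome; filled circles are array 1, open diamonds array 2, grey lines join both values of a probe, and dashed lines mark 1.5-fold. Around Apela both Trim61 probes lie above the upper line on both arrays, and around Apln and Aplnr no probe does.

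Genes that act with the peptides and their receptor were set beside them, as lists chosen by function. Together the 12 lists held 147 genes other than Apela, Apln and Aplnr, of which 132 were tested. In limma over all 21429 tested genes, 27 were called towards RNA A (0.126%) and 40 towards RNA B (0.187%) at an adjusted p of 0.05. Of the list genes limma called 0 towards RNA A (3 at an unadjusted p under 0.05) and 2 towards RNA B (12 unadjusted), and the filter took 2 in each direction. The 4 lists nearest to the ligands and the receptor held no gene past the filter or the adjusted limma threshold, and 1 (Edn2, towards RNA A) at an unadjusted p under 0.05. The share of all tested genes at an unadjusted p under 0.05 is not given here. The unadjusted counts therefore cannot be set against it.

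Among the enzymes that cut or inactivate the peptides, limma called none. Furin, which cleaves precursors at basic residues, gave -0.95 on array 1 and 0.34 on array 2, and Pcsk4, a related convertase, -0.72 and 0.13. Of the 10 genes in the list 9 were tested, 0 were called, and their median mean ratio was -0.0042 against 0.0067 over all tested genes.

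The 15 genes that pass the receptor's signal on were all tested and 0 were called, at a median of -0.10. Those with the largest ratios were Prkaa2, a catalytic subunit of AMP-activated kinase, at -0.46 ± 0.17, Grk3, a receptor kinase, at -0.43 ± 0.17, and its relative Grk2 at -0.18 ± 0.22 (SD, n = 2 arrays; limma adjusted p = 1.00 for each). In this list 7 genes were lower in RNA A on both arrays, 2 were higher on both and 6 changed direction. Over all tested genes these shares were 17.4%, 21.6% and 61.0%.

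Of the 12 downstream effectors, 11 were tested and 0 were called (median -0.03). Hdac4 and Hdac5, histone deacetylases that the receptor is known to act on, had mean ratios of -0.20 and -0.18. Fgfr1 gave -0.69 and 0.40. Among 35 genes of other vasoactive peptide systems (endothelins, angiotensin, natriuretic peptides, adrenomedullin and others) 28 were tested and 0 were called, with a median of 0.00087. The largest mean ratio there was that of Edn2, an endothelin, at 0.69 ± 0.08 (limma adjusted p = 0.549), from signals of 4.72 to 10.9. Npr1, a natriuretic peptide receptor, had -0.49 ± 0.59 and Vip, a neuropeptide, 0.48 ± 0.67 (SD, n = 2 arrays). The signals of all these were close to background.

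Endothelial cells are the usual site of Aplnr and Apln, and their markers were detected in both RNAs. All 15 endothelial genes were tested and 0 were called. Their summed signal was 23099 (RNA A) against 21604 (RNA B) on array 1 and 24911 against 24203 on array 2, ratios of 1.07 and 1.03. The median mean log2 ratio was 0.11, and 12 of the 15 changed direction between the arrays, against 61.0% of all tested genes. Egfl7 had -0.29 ± 0.13, Cldn5, a tight junction claudin, 0.28 ± 0.13, and Tek, the angiopoietin receptor, 0.23 ± 0.39 (SD, n = 2 arrays).

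Markers of tip cells and of veins and arteries gave the same picture of small ratios. The tip cell list, which holds Apln, had 9 tested genes with a median of 0.07. Esm1, a proteoglycan of tip cells, had 0.35 ± 0.34, Unc5b, a netrin receptor, -0.17 ± 0.45 and Pgf, a vessel growth factor, 0.14 ± 0.34. Of 11 vein and artery genes 10 were tested, with a median of 0.10, and Hey1 (0.18 ± 0.03), Bmx (0.15 ± 0.17) and Nrp2 (-0.14 ± 0.21) had the largest (SD, n = 2 arrays). None of these lists held a called gene.

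**Figure D4:**
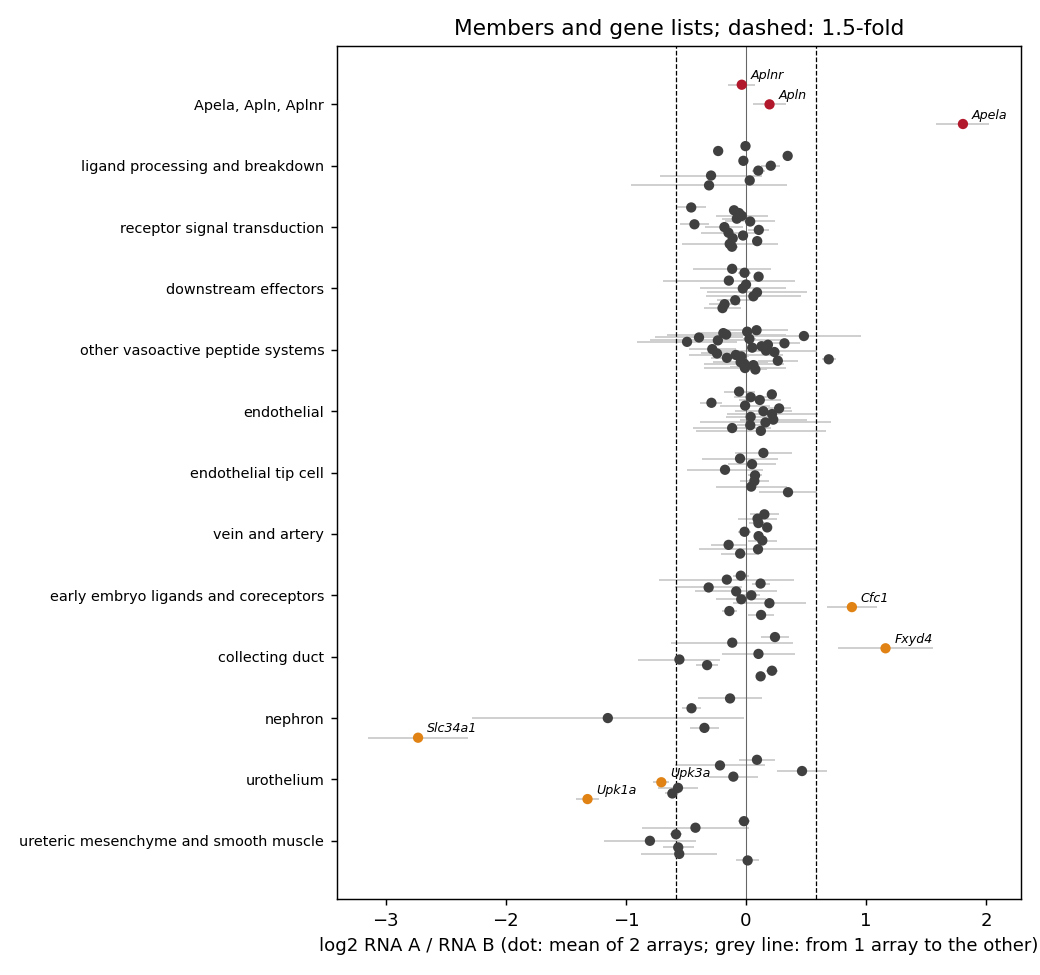
Mean log2 ratio of RNA A over RNA B (dots) and the values of the 2 arrays (ends of the grey lines) for Apela, Apln and Aplnr (red) and for the tested genes of 12 lists (grey; orange where the filter or limma took the gene); dashed lines mark 1.5-fold. Apela at 1.81 lies to the right of every listed gene, the nearest being Fxyd4 at 1.16 and Cfc1 at 0.88.

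Outside the vessel lists, a gene of early embryo signalling passed the filter in the direction of Apela. Cfc1 encodes a coreceptor for Nodal ligands. It gave 310 (RNA A) against 194 (RNA B) on array 1 and 431 against 203 on array 2 (log2 0.88 ± 0.29, SD, n = 2 arrays; limma adjusted p = 0.293). Of the 11 tested genes of that list, Cfc1 alone passed, and the median of the list was -0.04.

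Some markers of the collecting duct and the nephron also differed between the RNAs. Fxyd4, a regulator of the sodium pump found in collecting ducts, passed the filter towards RNA A, with 691 and 406 on array 1 and 684 and 233 on array 2 (1.16 ± 0.56; limma adjusted p = 0.154). The 8 tested collecting duct genes had a median of 0.11 and summed signals of 1681 and 1472 on array 1 and 1627 and 1174 on array 2. Without Fxyd4 the sums were 990 (RNA A) against 1067 (RNA B) on array 1 and 943 against 942 on array 2. The sodium channel subunits Scnn1b (log2 -0.42 and -0.23) and Scnn1g (-0.21 and -0.90) lay towards RNA B on each array, and neither was called. Of the 8 tested genes 4 lay towards RNA A on both arrays, 2 towards RNA B and 2 changed direction. Over all tested genes these shares were 21.6%, 17.4% and 61.0%. The 4 were Fxyd4, Aqp2 (0.16 and 0.08), Aqp4 (0.27 and 0.17) and Wnt11 (0.12 and 0.36). Aqp2, the water channel that defines the principal cell, gave only 51.8 to 89.9, and Avpr2 and Atp6v1b1 were not well above background. The part of collecting duct cells in the Apela ratio was not tested.

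Nephron genes lay mostly on the other side. The 5 tested genes had a median of -0.45, and their summed signals were 1433 (RNA A) against 1971 (RNA B) on array 1 and 1168 against 1238 on array 2. Six2 made up most of these sums, with 1107 against 1460.5 on array 1 and 840 against 765 on array 2. Its direction turned between the arrays. Umod, Slc12a1 and Nphs1 were not well above background. Slc34a1, a phosphate transporter of the proximal tubule, was called by limma towards RNA B (adjusted p = 0.0122) from signals of 6.20 and 30.8 on array 1 and 4.20 and 37.2 on array 2, but its other probe gave log2 ratios of -0.19 and -0.24. Over the alternatives run, its limma adjusted p ranged from 0.00619 to 1.00. The part of kidney tissue in the Apela ratio was not tested.

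The tissue's own markers were present throughout. All 8 urothelial and all 7 genes of the ureteric mesenchyme and smooth muscle were tested. Upk1a, a uroplakin of superficial cells, was brighter in RNA B by 2.50-fold (4545 and 12126 on array 1, 4915 and 11472 on array 2; log2 -1.32 ± 0.14, SD, n = 2 arrays; limma adjusted p = 0.0451, from 0.0175 to 1.00 over the alternatives). Upk3a passed the filter in the same direction (-0.70 ± 0.09). The largest mesenchymal ratios were those of the smooth muscle genes Myh11 (-0.80 ± 0.54), Myocd (-0.58 ± 0.08) and Tagln (-0.56 ± 0.18). Only these and Acta2 lay towards RNA B on both arrays (4 of the 7, against 17.4% of all tested genes). Tbx18 (0.11 and -0.08), Pdgfra (0.03 and -0.06) and Ptch1 (0.02 and -0.86) changed direction, as did 61.0% of all tested genes. Of the 7 genes limma called none. At an unadjusted p under 0.05 there were 4, all towards RNA B, a count with no share over all genes beside it. The median ratio was -0.39 for the urothelial list and -0.56 for the mesenchymal list, and Apela lay on the side opposite to both medians. The urothelial list was not uniform: Krt5, a keratin of basal cells, lay on the side of Apela on each array (0.26 and 0.67), while Trp63, Cdh1 and Epcam had opposite signs on the arrays. None of these genes was called. The part of urothelial and mesenchymal cells in the Apela ratio was not tested.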

How the data were processed

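Per the labels and file headers, RNA of pooled ureters was hybridised to 2 dual-colour Agilent arrays, and Agilent Feature Extraction 10.7.3.1 made the deposited intensities of each spot: background-subtracted, dye-normalised processed signals, mean signals and local backgrounds. A deposited log10 ratio (red to green) checked the dyes. The authors' deposited value table holds a signed fold change per array, read here as Pparg-cKO over control in the order of the sample titles. Set against the scanner values, it followed RNA A over RNA B (r = 0.996 and 0.997), and it was used as an alternative only.

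From the deposited intensities, control spots (17263 on each array) and outlier-flagged spots (5705 and 5579) were left out. No spot was saturated. The value of a probe was its mean log2 processed signal. Of the spots, 80.3% and 80.4% (green) and 70.4% and 70.4% (red) were well above background. Probes were named through RefSeq of assembly GRCm38.p6 (28328 of 39429), otherwise by the file's name. A gene was represented by its brightest probe. limma 3.58.1 in R 4.3.3 (package data.table, version 1.17.8) was fitted with an intercept to both ratios, two-sided, with Benjamini-Hochberg adjustment over 21429 genes. With 2 arrays there is 1 residual degree of freedom per gene. The p-values measure the spread between these arrays alone, through a moderated variance that limma shares over all tested genes. The limma fit and the fold threshold were run on simulated ratios, with success required only where the spread between arrays was narrow. Dye orientation, gene naming and the signal threshold were not part of that simulation. Other steps used Python 3.11.15, pandas 2.3.3, numpy 2.4.6 and matplotlib 3.10.9.

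The genes and lists were chosen with earlier results of these data known. Named were Apela, Apln and Aplnr, Pparg, list genes past the filter or limma (otherwise up to 3 with the largest mean ratio), the 5 genes nearest to Apela by ratios, and the 3 annotated neighbours on each side. Some genes that fall under this rule are not reported here. The probes within 300 kb were added after the data were seen. Alternatives were normexp (offset 50) with loess, loess, median centring, the authors' table, flagged spots kept, spot medians, means over probes, signal and fold thresholds, an intensity trend, keeping dim probes, separate channels and leaving out each array.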

Additional observations from a re-analysis of the deposited data

Results flagged for a closer look

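Aplnr was brighter in RNA A on the array of female pools (log2 ratio 0.077) and brighter in RNA B on the array of male pools (-0.15). It stands here because the directions of the sexes were opposite. The difference between them was not tested, as each sex has 1 array and the dyes were exchanged along with sex.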

How the results depend on the processing

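Apela kept its direction and size under every alternative run, with mean log2 ratios of 1.78 to 1.81 under other scalings and spot rules and 1.59 to 2.03 with each array left out. Apln ranged from 0.18 to 0.20, and from 0.055 to 0.34 with each array left out. Aplnr ranged from -0.058 to -0.028, and from -0.15 to 0.077 with each array left out, its direction turning to 0.077 on array 1 alone. Of the 2 list genes past the filter towards each RNA, a 2-fold threshold left 0 towards RNA A and 1 (Upk1a) towards RNA B, and without the signal threshold there were 4 towards RNA A. Over all genes, 47 towards RNA A and 69 towards RNA B became 19 and 29 at 2-fold. Without the signal threshold 193 of all genes lay towards RNA A. On 1 array alone the list counts were 5 to 6 towards RNA A and 8 to 12 towards RNA B. The counts over all genes were then 301 to 321 and 488 to 637. Under normexp with loess the genes past the filter numbered 2 in each direction, without Upk3a. Of the 2 list genes that limma called towards RNA B, 1 was left with loess, 0 with normexp and loess and 0 without the filter on dim probes. Over all genes the calls towards RNA B fell alike, from 40 to 20, 0 and 0 under these settings. The cause was not tested. The arrays' numbers pair the RNAs, because RNA A and RNA B share an array, so ratios within an array are the paired analysis. The fit of separate channels with no replicate block called 0 list genes, and over all genes 1 towards RNA A and 0 towards RNA B. Leaving out an array leaves limma no residual degree of freedom, so it gave values with no test. The signal of a dim probe such as those of Trim61 limits its ratio, since background correction alone moves it.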
